A study of Rattus norvegicus with 56 samples.

Results

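The carnitine shuttle and the mitochondrial beta-oxidation of fatty acids were followed through 10 genes, which 11 probe sets of a rat expression array measured, out of 15866 probe sets and 10411 named genes in all. Every probe set whose symbol in the platform's annotation, updated by Entrez gene ID, was Cpt1a, Cpt1b, Cpt2, Acadm, Acadl, Acadvl, Hadha, Hadhb, Etfdh or Etfb was taken. Cpt1a had 2 probe sets and the other genes 1 each, and since no filter on low values was applied, all 11 were tested.

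Female rats of the inbred Wistar Furth strain gave the mammary RNA, which was measured on 56 single-colour Affymetrix arrays. There were 12 rats of the group labelled RXR treatment and 12 control rats, each with 1 array of its own. The letters RXR usually stand for the retinoid X receptor, which binds DNA together with other nuclear receptors. No source used here names the compound, dose, duration or age. Diestrus was the labelled stage of 6 treated and 9 control rats, and the remaining 6 treated and 3 control rats carried the labels proestrus, estrus or either of these. From each rat 5 µg of RNA was labelled, and equal amounts of labelled targets of the same rats were then mixed to 10 µg for each pooled array: 6 treated and 6 control pools of 2 rats, 4 treated and 4 control pools of 3, and 1 treated and 1 control pool of 12 hybridised 4 times each. Rat 3 of each group was hybridised on 2 further arrays. The later 3 arrays of either pool of 12 carry the source label individual; their titles, which call them repeats of the pool, were followed. Pools hold the same rats as the single arrays, so they are no independent samples, and the difference between both pools of 12 has no test, because each was 1 mixture hybridised repeatedly. P-values for single arrays set the difference between groups against the variation between rats, which also holds the noise between arrays.

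Array medians lay between 7.40 and 7.48 log2. Differences between repeat arrays ran mainly along 1 axis, which held 57.3% of their variance. The position of an array on it, called the technical score below, had a mean of -0.62 over treated rats and 0.62 over control rats, a difference with a two-sided permutation p of 0.649. On the array of the treated pool of 12 labelled technical replicate 1 the score was -0.42, against 8.27 to 13.1 on its 3 repeats, and on that of the control pool labelled technical replicate 3 it was -12.4, against 8.44 to 11.1 on its 3 repeats, so differences between the pools of 12 are given with and without those arrays. Epithelial and fat cell markers were both well expressed, as in a whole gland. Epcam averaged 11.39 log2 in treated and 11.82 log2 in control rats, and Fabp4 averaged 13.04 log2 in treated and 12.73 log2 in control rats. In such bulk tissue, fewer cells of a type and less RNA per cell cannot be told apart.

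Long-chain fatty acids enter mitochondria as carnitine esters. Carnitine palmitoyltransferase 1 of the outer membrane makes the ester and is inhibited by malonyl-CoA, the first product of fatty acid synthesis, and carnitine palmitoyltransferase 2 of the inner membrane turns the ester back into acyl-CoA. Acyl-CoA dehydrogenases of different chain-length preference then start each round of beta-oxidation, the trifunctional protein completes it for long chains, and the electrons pass through the electron transfer flavoprotein to the respiratory chain. In liver and muscle many of these genes are targets of PPAR-alpha, which binds DNA as a partner of the retinoid X receptor. The mammary gland of a rat that is not lactating lies in fat tissue.

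The bases before a start in the RefSeq promoter table are shown for 4 members, because Hadha and Hadhb, whose products form the trifunctional protein, start close together and were both higher in treated rats, because Acadvl alone held the receptor hexamer, and because Cpt1a alone was lower. They are the 250 bases before that start in the rat assembly GRCr8, written 5′ to 3′ on the strand of the gene, with each match to a motif named below in capitals. The stretches are those of Hadha (chr6:31907551-31907800, plus strand), Hadhb (chr6:31907501-31907750, minus strand), Acadvl (chr10:55236706-55236955, minus strand) and Cpt1a (chr1:209995910-209996159, plus strand).
Hadha: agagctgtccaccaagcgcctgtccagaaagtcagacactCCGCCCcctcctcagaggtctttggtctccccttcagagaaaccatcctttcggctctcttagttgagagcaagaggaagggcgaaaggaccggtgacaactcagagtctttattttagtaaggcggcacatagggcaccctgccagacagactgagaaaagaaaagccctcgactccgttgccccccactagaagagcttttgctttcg
Hadhb: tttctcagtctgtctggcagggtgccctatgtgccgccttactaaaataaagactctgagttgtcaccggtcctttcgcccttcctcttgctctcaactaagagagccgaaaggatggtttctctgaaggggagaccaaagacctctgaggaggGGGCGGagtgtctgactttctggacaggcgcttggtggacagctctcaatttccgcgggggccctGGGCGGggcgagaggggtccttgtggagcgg
Acadvl: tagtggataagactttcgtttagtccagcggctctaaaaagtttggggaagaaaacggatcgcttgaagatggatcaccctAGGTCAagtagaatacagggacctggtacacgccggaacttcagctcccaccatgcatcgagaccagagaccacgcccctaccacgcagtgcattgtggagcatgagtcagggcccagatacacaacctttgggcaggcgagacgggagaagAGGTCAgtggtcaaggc
Cpt1a: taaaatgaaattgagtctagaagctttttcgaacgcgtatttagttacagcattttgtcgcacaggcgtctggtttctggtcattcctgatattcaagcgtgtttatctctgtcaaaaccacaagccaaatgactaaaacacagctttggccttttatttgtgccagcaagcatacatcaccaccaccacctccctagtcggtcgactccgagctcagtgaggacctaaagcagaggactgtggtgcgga
For 4 of the 8 members that the table held, the start lies inside the annotated gene, by 2279 bases for Cpt1a, 529 for Cpt2, 81 for Acadvl and 57 for Hadhb, so the stretch shown for Cpt1a lies wholly within its gene. The starts of Hadha and Hadhb in that table lie 301 bases apart on opposite strands, so the 2 stretches share 200 bases, read in opposite directions. Cpt1b and Acadl were the 2 members it did not hold. Both strands were searched for AGGTCA, the hexamer that nuclear receptors of this class bind, and 1 of 8 members held it, Acadvl, at -169 and -17 from its start, against 14.1% of 33469 promoters of the same length. The direct repeat AGGTCANAGGTCA, the arrangement that PPAR and RXR pairs bind, was in 0 of 8 members, against 0.0508% of promoters. Only these exact letters were counted. At -17 in Acadvl the hexamer is followed, after 1 base, by tggtca, which differs from it in 1 letter. The longer AAGGTCA, which contains the hexamer, was in 0 of 8, against 3.99%. The GC box GGGCGG was in 5 of 8, against 30.5%, the CCAAT box in 1 of 8, Etfb, against 34.0%, and the E-box CACGTG in 0 of 8, against 5.59%. In Hadha and Hadhb the capitals mark GC boxes, written CCGCCC where the motif lies on the other strand, of which 1 lies in the stretch they share and is the same site read in both directions, and Cpt1a held no match to any of the 6 motifs. A match describes letters and is no evidence of binding, and a missing match concerns only this window and the exact letters of a motif.

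Most of the 10 members were higher in treated glands, while the isoforms of the pathway's first enzyme differed in opposite directions. Of the 11 probe sets, 7 were higher in treated rats (Cpt1b, Cpt2, Acadm, Acadvl, Hadha, Hadhb and Etfdh), 2 were lower (both of Cpt1a), and Acadl and Etfb did not pass, by limma with Benjamini-Hochberg adjustment over all probe sets and a threshold of 0.05. Among all probe sets 8.46% passed as higher and 9.59% as lower. By gene, 7 of 10 were higher and 1 lower, against 9.81% higher and 10.4% lower of all genes, and the median difference was 0.32 log2 over the members and -0.00417 over all genes. Groups of rats that did not overlap at all were found for 1 of 11 probe sets, Etfdh, against 0.384% of all probe sets with every treated rat above every control rat and 0.139% with every treated rat below. This rests on the array of treated rat 3, since with one of its 2 repeat arrays in its place Etfdh overlapped. With rat 3 of both groups taken as the mean of its 3 arrays, Hadhb and Etfdh did not overlap (2 of 11), against 0.454% of all probe sets above and 0.183% below. These members were listed with results of these arrays already known, so the counts describe them and are no independent evidence of a direction. In the same rats 6 of 10 fat cell markers were higher and 9 of 11 luminal epithelial markers lower, with values given further on, and the part of either in the members' differences was not tested.

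**Figure D1:**
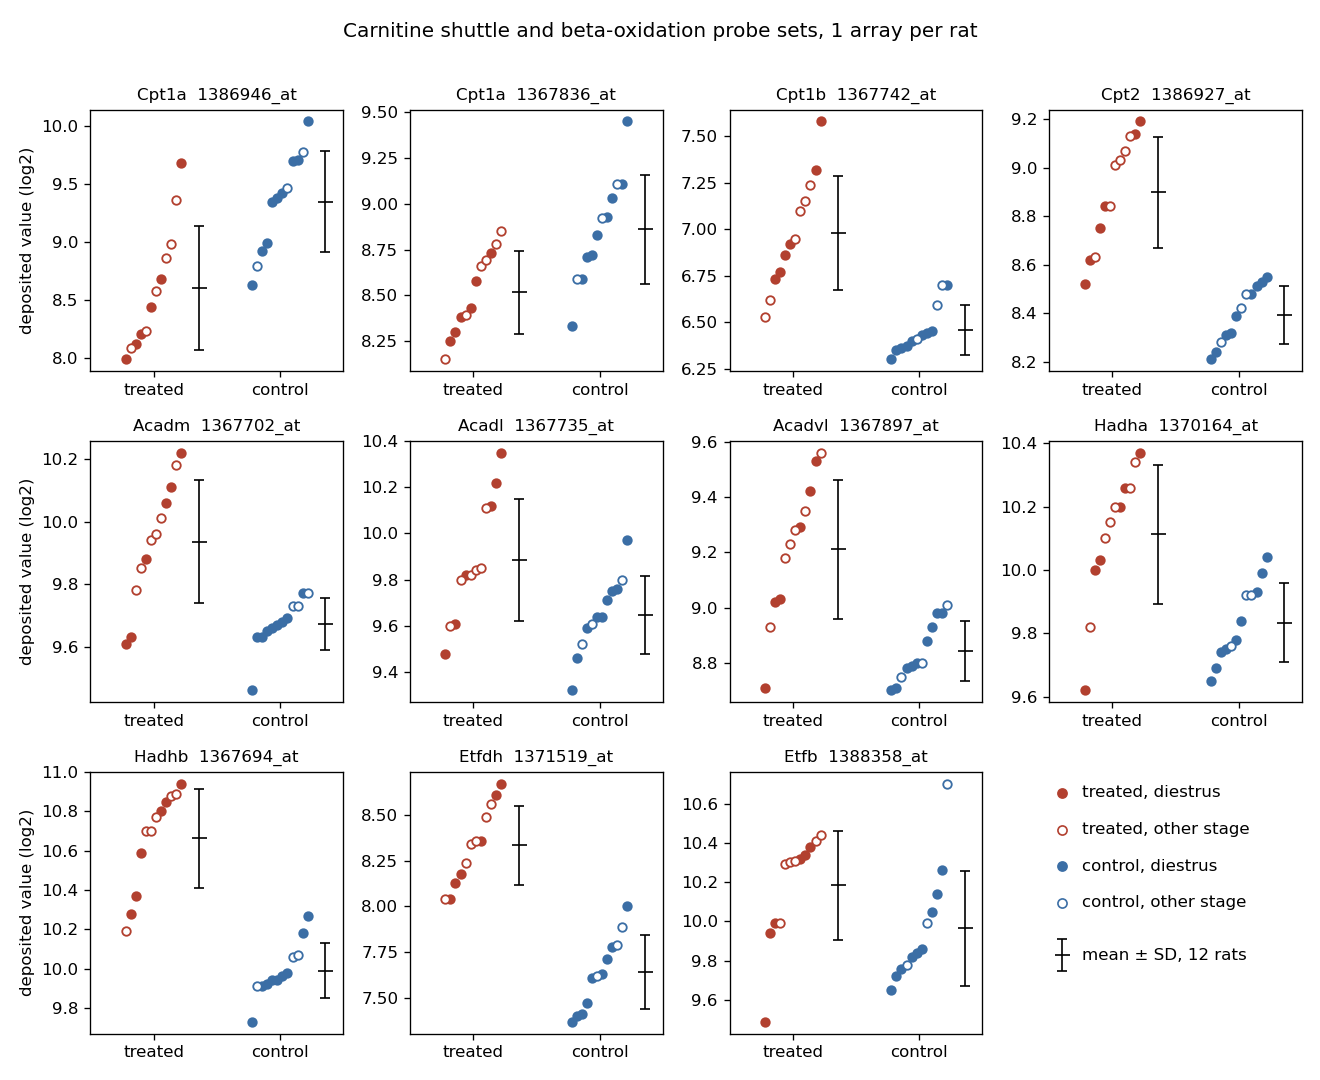
Deposited log2 values of the 11 probe sets in each of 12 treated and 12 control rats, 1 point per rat in order of value, filled for diestrus and open for other stages, with the mean and SD of each group beside the points; each panel has its own axis. Treated points lie lower for Cpt1a and higher for most other panels, and only in the Etfdh panel do the groups not overlap on these arrays.

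Cpt1a, the liver-type carnitine palmitoyltransferase 1 and the form most sensitive to fasting in liver, was the only member that was lower in treated rats. Probe set 1386946_at had 7.99, 8.51 and 9.68 log2 as the lowest, median and highest of the treated rats, against 8.63, 9.40 and 10.04 log2 in control rats. The groups overlapped, with 7 treated rats below every control rat and 2 treated rats, 6 and 3, above the control mean. The difference was -0.75 ± 0.19 log2 (SE), 0.596-fold, with a limma adjusted p of 0.00536. Probe set 1367836_at had 8.15, 8.51 and 8.85 log2 in treated rats, against 8.33, 8.88 and 9.45 log2 in control rats. All 12 treated rats were below the control mean, and the difference was smaller, -0.34 ± 0.10 log2 (limma adjusted p = 0.0190). The probe sets varied together across rats, with a Pearson correlation of 0.89 over the 24 rats after the group means were subtracted.

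Cpt1b, the muscle-type form of the same enzyme, which rodent fat cells also make, went the other way. Its probe set 1367742_at had 6.53, 6.94 and 7.58 log2 in treated rats as the lowest, median and highest value, against 6.30, 6.42 and 6.70 log2 in control rats. Of the treated rats 10 lay above every control rat, and the overlap came from treated rats 3 and 14 and control rats 3, 10 and 14. The rise was 0.52 ± 0.09 log2 (SE), 1.44-fold (limma adjusted p = 0.000194). The difference between treated and control rats was 1.27 ± 0.24 log2 larger for Cpt1b than for Cpt1a (permutation test, two-sided, p = 6e-05; adjusted over 3 such comparisons chosen after the values were seen, 6e-05). Markers of skeletal muscle, the tissue for which Cpt1b is named, were 1 higher and 0 lower of 18 genes. Their summed level was 11.48 to 12.00 log2 in treated and 11.39 to 11.79 log2 in control rats. Their single call, the myosin light chain gene Myl1, was 0.21 ± 0.04 log2 higher. Myl1 averaged 5.31 log2 in treated and 5.10 log2 in control rats, near the lower end of the values on the array. The part of muscle in the Cpt1b difference was not tested.

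Cpt2 (1386927_at), the inner-membrane enzyme that completes the shuttle, had 8.52, 8.93 and 9.19 log2 in treated rats as the lowest, median and highest value, against 8.21, 8.41 and 8.55 log2 in control rats. Only treated rat 9 fell within the range of the control rats. The rise was 0.50 ± 0.07 log2 (SE), 1.42-fold (limma adjusted p = 1.77e-05).

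Among the acyl-CoA dehydrogenases, the medium-chain and very-long-chain enzymes rose and the long-chain enzyme did not pass. Acadvl (1367897_at), which acts on the longest chains at the inner membrane, had 8.71, 9.26 and 9.56 log2 in treated rats, against 8.70, 8.80 and 9.01 log2 in control rats, and rose by 0.37 ± 0.08 log2 (SE; limma adjusted p = 0.000963). Acadm (1367702_at), the medium-chain enzyme, had 9.61, 9.95 and 10.22 log2 in treated rats, against 9.46, 9.68 and 9.77 log2 in control rats, and rose by 0.26 ± 0.06 log2 (limma adjusted p = 0.00239). On these arrays 10 treated rats lay above every control rat for each of these genes. The other 2 lay among the controls, rats 5 and 9 for Acadm and rats 9 and 3 for Acadvl. For Acadm, treated rat 3 was at 9.78 log2, just above the highest control at 9.77, and its 2 repeat arrays read 9.67 and 9.81 log2. As means of 3 arrays, treated rat 3 was at 9.75 log2 and control rat 3 at 9.80 log2 for Acadm. Acadl (1367735_at), the long-chain enzyme, had 9.48, 9.83 and 10.35 log2 in treated rats, against 9.32, 9.64 and 9.97 log2 in control rats. Its difference of 0.24 ± 0.09 log2 missed the threshold (limma adjusted p = 0.0571), with a 95% interval from 0.06 to 0.42. Acadl passed without treated rat 3, 5 or 9, or without control rat 14, one at a time, with an adjusted p of 0.0206 at the lowest.

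Both subunits of the trifunctional protein rose, by unequal amounts at their probe sets. Hadhb (1367694_at), the beta subunit with the thiolase activity, had 10.19, 10.74 and 10.94 log2 in treated rats, against 9.73, 9.95 and 10.27 log2 in control rats. Only treated rat 3 lay within the control range, and 11 control rats lay below every treated rat. The 2 repeat arrays of that rat read 10.35 and 10.43 log2, above every control rat. The rise was 0.67 ± 0.08 log2 (SE), 1.60-fold (limma adjusted p = 2.36e-06). Hadha (1370164_at), the alpha subunit with the hydratase and dehydrogenase activities, had 9.62, 10.18 and 10.37 log2 in treated rats, against 9.65, 9.81 and 10.04 log2 in control rats. Of the treated rats 8 lay above every control rat, while treated rat 9 was the lowest of all 24, and the rise was 0.28 ± 0.07 log2 (limma adjusted p = 0.00543). The difference of Hadhb exceeded that of Hadha by 0.40 ± 0.04 log2 (permutation test, two-sided, p = 1e-05, the smallest that 100000 resamples can give; adjusted 1.5e-05). Each gene had a single probe set, and the probe sets of the gene Cpt1a also gave unequal differences. Whether the transcripts themselves changed unequally was not tested.

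Of the flavoprotein genes, the one closest to the respiratory chain separated the groups. Etfdh (1371519_at), the oxidoreductase that hands electrons from the flavoprotein to ubiquinone, had 8.04, 8.35 and 8.67 log2 in treated rats, against 7.37, 7.63 and 8.0 log2 in control rats. On these arrays every treated rat lay above every control rat, by a gap of 0.04 log2 between treated rats 3 and 9, both at 8.04, and the highest control. The repeat arrays of treated rat 3 read 7.94 and 8.21 log2, one of them below that control, and the SD between repeat arrays was 0.098 log2, larger than the gap. The rise was 0.70 ± 0.08 log2 (SE), 1.62-fold (limma adjusted p = 2.17e-06). Etfb (1388358_at), the beta subunit of the flavoprotein, had 9.49, 10.31 and 10.44 log2 in treated rats, against 9.65, 9.85 and 10.70 log2 in control rats. Its extremes ran against the group difference, since the lowest of all rats was treated rat 9 and the highest control rat 10. The difference of 0.22 ± 0.11 log2 did not pass (limma adjusted p = 0.190; 95% interval -0.01 to 0.45), and it did pass without treated rat 9 (adjusted p = 0.0445) or control rat 10 (adjusted p = 0.0377). The difference of Etfdh exceeded that of Etfb by 0.48 ± 0.09 log2 (permutation test, two-sided, p = 1e-05; adjusted 1.5e-05). The limit given for Hadha and Hadhb, a single probe set for each gene, applies here too.

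The same rats were low or high at most members. Treated rats 9 and 3 were among the 3 lowest treated rats at all 9 probe sets other than those of Cpt1a. At Etfb, treated rat 3 tied with treated rat 5 at 9.99 log2 for the last of these 3 places. As the mean of its 3 arrays, treated rat 3 ranked 4 from the lowest at Etfb. Treated rat 7 was among the 3 highest at 8 of the 9. Among controls, rat 14 was among the 3 highest at 8 of the 9 and rat 13 among the 3 lowest at 6. The mean of 10 fat cell markers was 10.66 log2 in treated rat 9, 10.78 log2 in treated rat 3 and 11.51 log2 in treated rat 7. It was 11.31 log2 in control rat 14 and 10.63 log2 in control rat 13. On the single arrays, technical scores were -8.19 and -7.71 in treated rats 9 and 3 and 2.02 in treated rat 7. They were -3.86 and 0.18 in control rats 14 and 13. The 2 repeat arrays of treated rat 3 scored -6.45 and 14.2. The part of fat cell content or of the score in these orders was not tested. With the technical score as a covariate 8 probe sets were higher and 2 lower, and the added one was Acadl (0.25 ± 0.08 log2, limma adjusted p = 0.0290). How many of all probe sets passed in that fit was not counted.

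After the group means were subtracted, the 36 pairs among the 9 probe sets other than Cpt1a correlated across the 24 rats at 0.421 to 0.875, with a median of 0.723. The Cpt1a probe sets correlated with these 9 at -0.239 to 0.302 and at -0.205 to 0.175. These values share their arrays and the technical axis and are a description. Within groups, 4 pairs of partners were tested, 8 correlations in all. Hadha and Hadhb correlated at r = 0.872 among treated rats (n = 12; permutation p = 0.0004, adjusted 0.00115), with a Spearman's rho of 0.833 (permutation p = 0.00115, adjusted 0.0046). Among control rats they correlated at r = 0.851 (n = 12; permutation p = 0.00019, adjusted 0.00115), while rho was 0.636 and missed 0.05 after adjustment (permutation p = 0.0293, adjusted 0.0586). With each array centred on its median that rho was 0.779 and passed (permutation p = 0.00398, adjusted 0.00796). Without the 2 rats farthest from the median of Hadha, r was 0.726 in treated and 0.693 in control rats.

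Acadm and Acadl correlated at r = 0.862 in treated rats (permutation p = 0.00043, adjusted 0.00115; rho 0.802, permutation p = 0.00255, adjusted 0.0068; 0.790 without the 2 farthest rats). In control rats r was 0.616 (permutation p = 0.0373, adjusted 0.0596) with rho at 0.268 (permutation p = 0.394, adjusted 0.394), and r was 0.149 without the 2 farthest rats, so it rests on them. Etfb and Etfdh correlated at r = 0.787 in treated rats (permutation p = 0.00077, adjusted 0.00154; rho 0.856, permutation p = 0.00078, adjusted 0.0046; 0.805 without the 2 farthest). In control rats r was 0.536 (permutation p = 0.0697, adjusted 0.0930; rho 0.517, permutation p = 0.0884, adjusted 0.142; 0.338 without the 2 farthest). Cpt1a and Cpt1b gave r = -0.485 in treated rats (permutation p = 0.111, adjusted 0.126; rho -0.378, permutation p = 0.227, adjusted 0.272; -0.208 without the 2 farthest). They gave r = 0.423 in control rats (permutation p = 0.175, adjusted 0.175; rho 0.368, permutation p = 0.238, adjusted 0.272; 0.0687 without the 2 farthest), and neither passed. After median centring of the arrays the control pair gave an r of 0.377 and a rho of 0.245. Without the 2 farthest rats its r was then 0.602. Those rats were chosen anew after centring and were not the same 2, so 0.0687 and 0.602 do not show the scaling alone. Whether a pair's correlation differed between groups was not tested.

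**Figure D2:**
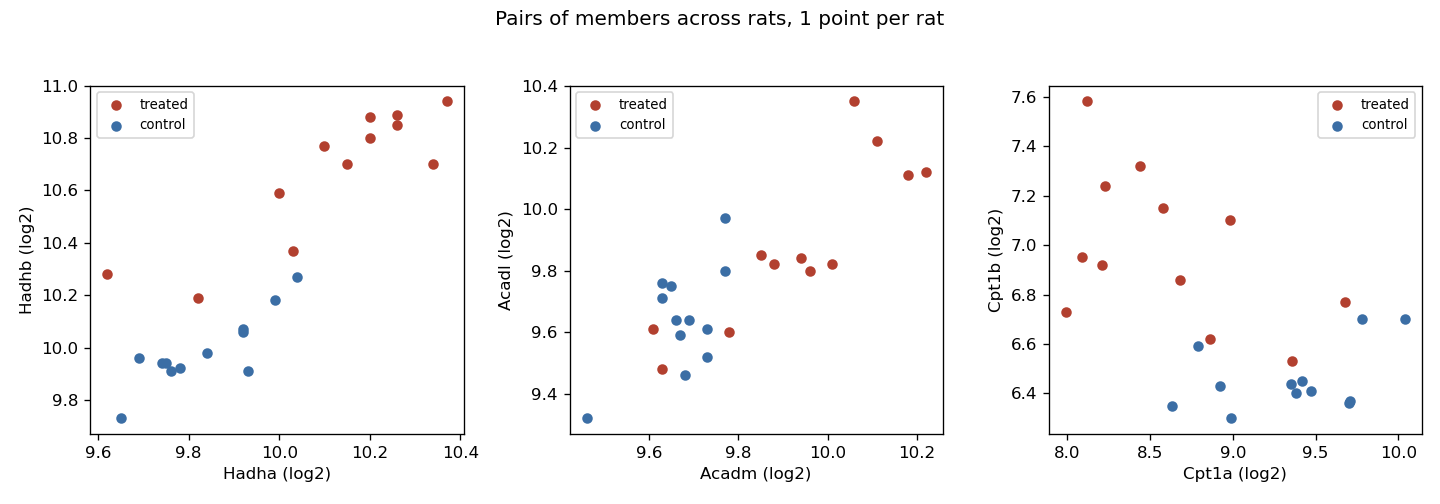
Log2 values of 3 pairs of members, 1 point per rat, for 12 treated and 12 control rats, with one gene on each axis. Hadha and Hadhb rise together in both groups, with treated rats lying higher on the Hadhb axis, while Cpt1a and Cpt1b show opposite slopes that did not pass.

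The genes most like a member were named by the highest Pearson correlation over the 24 rats after subtraction of the group means. For Cpt1a these were Angptl4 (0.765), an inhibitor of lipoprotein lipase, Eci2 (0.750), an enoyl-CoA isomerase for unsaturated fatty acids, Serpina3n (0.733) and Slc7a6 (0.730). For Cpt1b they were Camk2b (0.889), a calmodulin-dependent kinase, Parm1 (0.876), Serpina11 (0.874) and C1h19orf33 (0.833). Those of Hadha were Dld (0.898), a dehydrogenase subunit shared by the pyruvate and oxoglutarate complexes, Cyb5a (0.874), Fis1 (0.871) and its fellow member Acadvl (0.870). Those of Acadm were Bphl (0.912), Slc25a39 (0.900), a mitochondrial carrier, Decr1 (0.896), the dienoyl-CoA reductase of beta-oxidation, and Oaz2 (0.890).

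Rats of a group varied more than repeat arrays did at every member. The SD between rats of a group was 4.53 times the SD between repeat arrays for Cpt1a (1386946_at), 3.61 times for Etfb and 1.27 times for Acadl, the lowest, and all 11 lay above the median of all probe sets, 1.19. Treated rats spread more than control rats at 9 of 11 probe sets. The ratio of SDs was 2.38 for Acadm (0.20 log2 in treated and 0.08 log2 in control rats), 2.31 for Cpt1b (0.31 and 0.13) and 2.30 for Acadvl (0.25 and 0.11), against a median of 1.07 over all probe sets. At Etfdh the SDs were nearly equal, 0.22 log2 in treated and 0.20 log2 in control rats. No test was made of these ratios.

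The treatment difference was also taken within stages, since more control than treated rats were in diestrus. In diestrus 4 probe sets were higher, Cpt1b at 0.61 ± 0.11 log2 (SE), Cpt2 at 0.45 ± 0.10, Hadhb at 0.66 ± 0.10 and Etfdh at 0.73 ± 0.11, against 4.3% of all probe sets. The lower one was Cpt1a (1386946_at), at -0.83 ± 0.25 log2 (limma adjusted p = 0.0478), against 4.43% of all probe sets. That call was lost without any one of 12 of the 15 rats (largest adjusted p = 0.122), the exceptions being treated rat 6 and control rats 13 and 15. In the 6 treated and 3 control rats of other stages 3 probe sets were higher, Cpt2 at 0.56 ± 0.11 log2, Hadhb at 0.68 ± 0.13 and Etfdh at 0.57 ± 0.11, against 1.2% of all probe sets. None was lower (0 of 11 by limma, 1 at an unadjusted p under 0.05), against 0.284% of all probe sets. Cpt1a (1386946_at) was at -0.66 ± 0.28 log2 there (limma adjusted p = 0.326). All 3 calls of the other stages were lost without any one of the rats except treated rat 3 (largest adjusted p = 0.183 for Hadhb). Without treated rat 3 there were 5 higher, Acadvl and Hadha being added.

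No member passed for stage. In a model that also held treatment, rats of other stages and rats in diestrus differed by -0.06 (Acadl) to 0.23 log2 (Etfb), and 0 of 11 probe sets passed by limma, against 0% of all. Etfb was the 1 member with an unadjusted p under 0.05. It averaged 10.29 ± 0.16 log2 (SD, n = 6) in treated rats of other stages and 10.08 ± 0.34 log2 (SD, n = 6) in treated rats in diestrus. In control rats it averaged 10.16 ± 0.48 log2 (SD, n = 3) in other stages and 9.90 ± 0.20 log2 (SD, n = 9) in diestrus. The interaction of treatment and stage passed for 0 of 11 members, against 0% of all probe sets, with 0 unadjusted p under 0.05. Its terms ran from -0.24 (Cpt1b, 95% interval -0.66 to 0.17) to 0.17 log2 (Cpt1a 1386946_at, -0.69 to 1.03), so differences between stages of the size of the treatment difference in Cpt1a lie within the interval.

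In pools of labelled targets of these same rats every probe set had the sign it had in single rats. In pools of 2 the same 7 probe sets were higher, against 5.15% of all, and both of Cpt1a were lower, against 3.67% of all. Hadhb had 10.43, 10.66 and 10.94 log2 as the lowest, median and highest of 6 treated pools, against 9.95, 10.08 and 10.27 log2 in 6 control pools, a difference of 0.60 ± 0.09 log2 (SE; limma adjusted p = 0.000871). No treated pool reached the control range. Cpt1a (1386946_at) had 8.30, 8.73 and 9.14 log2 in treated pools, against 8.73, 9.51 and 9.96 log2 in control pools, and differed by -0.74 ± 0.21 log2 (limma adjusted p = 0.0440). The call was lost without any one of 8 of the 12 pools (largest adjusted p = 0.103), with each array centred on its median (adjusted p = 0.0512) or with a trended and robust prior (adjusted p = 0.0813). The call of 1367836_at was lost without any one of 7 pools (largest adjusted p = 0.0820).

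In pools of 3, 4 probe sets were higher (Cpt1b, Cpt2, Hadhb and Etfdh), against 3.26% of all, and both of Cpt1a were lower, against 2.97% of all. Cpt1a (1386946_at) had 8.33, 8.73, 8.85 and 8.95 log2 in the 4 treated pools, against 9.06, 9.46, 9.50 and 9.74 log2 in the 4 control pools. The groups did not overlap there, and the difference was -0.73 ± 0.15 log2 (SE; limma adjusted p = 0.0154). Etfdh had 8.35, 8.36, 8.38 and 8.49 log2 in treated pools, against 7.57, 7.77, 7.84 and 7.91 log2 in control pools, a difference of 0.62 ± 0.08 log2 (limma adjusted p = 0.00122). Cpt1b had 6.69, 6.85, 7.31 and 7.34 log2 in treated pools, against 6.07, 6.26, 6.40 and 6.58 log2 in control pools, a difference of 0.72 ± 0.15 log2 (limma adjusted p = 0.0159). Those groups did not overlap either. With quantile normalization Cpt2 was no longer called (adjusted p = 0.0564). Cpt1b was no longer called without replicate 2 of the treated pools (adjusted p = 0.0556), Cpt2 without any one of 6 of the 8 pools (largest adjusted p = 0.149) and Cpt1a 1367836_at without any one of 5 (largest 0.0877).

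The 4 arrays of the treated pool of 12 gave Etfdh values of 8.33 to 8.51 log2, against 7.72 to 7.83 log2 on the 4 arrays of the control pool. Differences were positive for 9 of 11 probe sets, with all arrays, without either array that stands apart and without both. They were 0.64 log2 for Etfdh, 0.60 for Hadhb, 0.54 for Cpt1b and 0.47 for Cpt2, and without both arrays 0.65, 0.60, 0.62 and 0.57. For Acadl the difference was 0.28 log2 with all arrays, 0.19 without the control array, 0.36 without the treated array and 0.28 without both. For Cpt1a they were -0.65 and -0.42 log2, and -0.61 and -0.35 without both arrays. Compared with the averaged linear values of the rats they hold, on the log2 scale, pooled arrays of the members differed by a median of 0.09 log2 in pools of 2, 0.09 in pools of 3 and 0.07 in pools of 12. The widest gap was that of Acadm in a pool of 3, -0.42 log2.

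**Figure D3:**
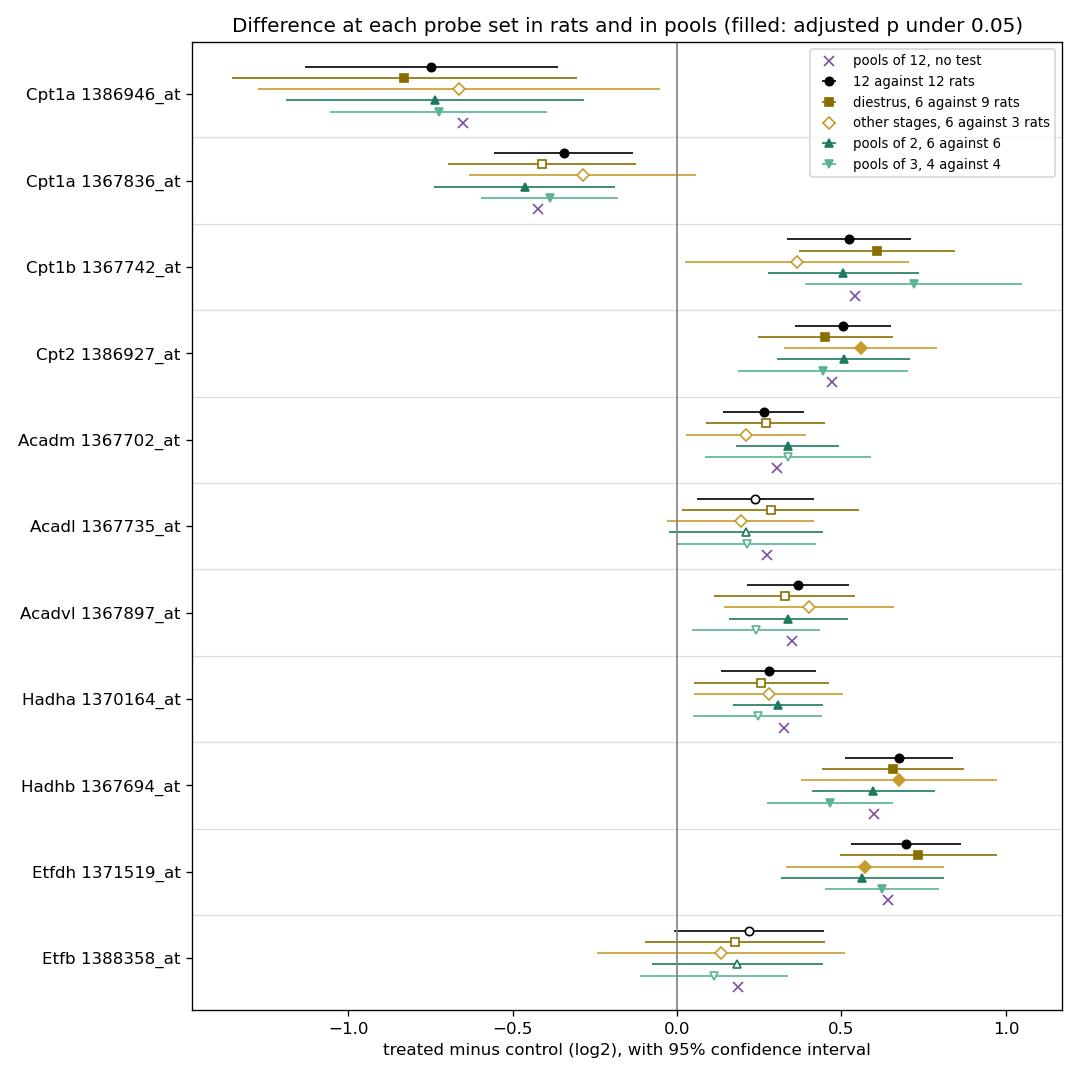
Treated minus control differences in log2 for each probe set, with 95% confidence intervals, in all rats, by stage, in pools of 2 and of 3, and without an interval in pools of 12; filled symbols passed an adjusted p of 0.05. Both probe sets of Cpt1a lie left of 0 in every comparison and the other 9 lie right of it.

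Other genes of the same steps were counted from lists that were written with earlier results of these arrays known. Of 16 other measured genes of mitochondrial beta-oxidation, 7 were higher and 0 lower, with a median of 0.12 log2. Acat1, the mitochondrial thiolase of short chains, rose by 0.46 ± 0.06 log2 (SE), Etfa, the alpha subunit of the flavoprotein, by 0.55 ± 0.08, Decr1 by 0.57 ± 0.09 and Acads, the short-chain dehydrogenase, by 0.30 ± 0.05 (limma adjusted p between 6.04e-06 and 0.000164). In all 13 of the 16 were positive. Acaa2, a mitochondrial 3-ketoacyl-CoA thiolase chosen after its value was seen, had the lowest difference of the list, -0.26 ± 0.10 log2 (adjusted p = 0.0653). In diestrus, with 6 treated and 9 control rats, 7 of the 16 were also higher and 0 lower. Over all 10411 genes 526 were higher and 510 lower there. Within diestrus Slc25a20 averaged 7.59 log2 in treated and 7.55 log2 in control rats. Its difference was 0.04 ± 0.07 log2 (limma adjusted p = 0.816). Slc22a5, Hsd17b10 and Eci2 lay between -0.02 and 0.01 log2 there. All of these were named after their values were seen.

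The genes that set malonyl-CoA went both ways, 2 higher and 2 lower of 5. Acaca, the cytosolic carboxylase that makes malonyl-CoA for fatty acid synthesis, rose by 1.04 ± 0.17 log2 (SE; limma adjusted p = 7.55e-05). It averaged 12.05 log2 in treated and 11.01 log2 in control rats. Acacb, the carboxylase of the mitochondrial surface, fell by 0.35 ± 0.09 log2 (adjusted p = 0.00764), and Mlycd, which breaks malonyl-CoA down, rose by 0.27 ± 0.06 log2 (adjusted p = 0.00142). Prkaa1, a catalytic subunit of the kinase AMPK, fell by 0.27 ± 0.08 log2 at one probe set (adjusted p = 0.0167) and was at -0.02 at the other. Prkaa2, the gene of the other catalytic subunit, had a positive difference and did not pass. In diestrus it was at 0.37 ± 0.14 log2 (limma adjusted p = 0.132). Prkaa2 is named after its values were seen.

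Of 7 regulators 3 were higher and 0 lower. Lpin1, a phosphatidate phosphatase that also acts as a coactivator, rose by 1.20 ± 0.18 log2 (SE; limma adjusted p = 3.55e-05), Pparg, the regulator of fat cell differentiation, by 0.76 ± 0.14 (adjusted p = 0.000349) and Esrra, an orphan receptor that drives mitochondrial genes, by 0.14 ± 0.04 (adjusted p = 0.0158). Ppara averaged 5.55 log2 in treated and 5.56 log2 in control rats, and its coactivator Ppargc1a 4.81 log2 in treated and 4.79 log2 in control rats. Neither passed, and both lay near the lower end of the array's values; they are named after their values were seen. Of 11 genes that fasting induces through PPAR-alpha in liver, 3 were higher and 3 lower. That list shares Cpt1a with the members, Mlycd with the malonyl-CoA genes and Slc25a20 with the other genes of beta-oxidation. Ucp2, an uncoupling protein homologue, fell by 0.59 ± 0.10 log2 (adjusted p = 0.000107), and Acsl1, an acyl-CoA synthetase, rose by 0.61 ± 0.16 log2 (adjusted p = 0.00721). Angptl4, the gene most like Cpt1a above, was at -0.81 ± 0.30 log2 and did not pass (adjusted p = 0.0616). It averaged 9.80 log2 in treated and 10.61 log2 in control rats.

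In the steps downstream of beta-oxidation nearly every measured gene was higher. Of 11 citric acid cycle genes 10 passed as higher, 0 as lower, and all 11 were positive (median 0.49 log2). Those with the smallest p were Idh3g at 0.52 ± 0.05 log2 (SE), Suclg1 at 0.53 ± 0.07, Dld at 0.75 ± 0.11 and Mdh2 at 0.51 ± 0.07. For the respiratory chain 20 of 21 genes passed as higher, 0 as lower, and all 21 were positive (median 0.41). These were led by Atp5f1b, a subunit of the ATP synthase, at 0.36 ± 0.03, Cyc1 and Uqcrc1 of complex III at 0.66 ± 0.07 and 0.49 ± 0.06, and Ndufs1 of complex I at 0.81 ± 0.10. All of these counts stand beside 9.81% of genes higher and 10.4% lower over the whole array.

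The breakdown of branched-chain amino acids and odd-chain fatty acids, which also feeds the electron transfer flavoprotein, had 10 of 12 genes higher, 0 lower and all 12 positive (median 0.38 log2). Pcca, a subunit of propionyl-CoA carboxylase, rose by 0.81 ± 0.11 log2 (SE), Mcee, an epimerase of the same route, by 0.72 ± 0.15, Dbt of the branched-chain dehydrogenase by 0.62 ± 0.14 and Hibadh of valine breakdown by 0.36 ± 0.08. Peroxisomal oxidation had 3 of 8 genes higher, 0 lower and 6 positive (median 0.07). These were Scp2 at 0.32 ± 0.06, Hsd17b4 at 0.23 ± 0.07 and Pex11a at 0.31 ± 0.09. Of 2 measured genes of ketone body use and synthesis, Oxct1 rose by 0.45 ± 0.07 and Bdh1 was at 0.09 ± 0.04 (limma adjusted p = 0.134).

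Markers of cell types moved in the same samples. Of 10 fat cell markers 6 were higher and 1 lower. Lep, the hormone leptin, rose by 1.01 ± 0.11 log2 (SE), Aqp7, a glycerol channel, by 1.1 ± 0.14 and Lpl, lipoprotein lipase, by 0.57 ± 0.10, while Cfd, the secreted protein adipsin, fell by 0.69 on the log2 scale. The summed level of these markers ran from 14.81 to 15.52 log2 in treated and from 14.82 to 15.48 log2 in control rats, with medians of 15.25 in treated and 15.05 in control rats. Of 6 brown fat markers 0 passed in either direction by limma (1 at an unadjusted p under 0.05), and Ucp1 averaged 5.84 log2 in treated and 5.86 log2 in control rats.

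Epithelial markers were lower. Of 11 luminal markers 9 were lower, 0 higher and 0 positive, with Epcam at -0.43 ± 0.05 log2 (SE), Cdh1 at -0.39 ± 0.07, Muc1 at -0.50 ± 0.10 and Cldn7 at -0.47 ± 0.10. Their summed levels were 13.36 to 13.82 log2 in treated and 13.73 to 14.17 log2 in control rats. Of 8 basal markers 1 was higher, the oxytocin receptor gene Oxtr at 0.90 ± 0.14, and 4 were lower, Trim29, Mylk, Acta2 and Tp63, at -0.34 to -0.43, while a dimmer probe set of Tp63 was at 0.02. Of 4 macrophage markers Csf1r at 0.30 ± 0.08 and Lyz2 at 0.25 ± 0.07 were higher, and Cd68 at 0.14 ± 0.05 and C1qa at 0.13 ± 0.08 did not pass. Of 5 endothelial markers 1 was lower and 0 higher. Of 7 fibroblast and 7 lymphocyte markers 0 passed by limma (3 fibroblast and 1 lymphocyte marker at an unadjusted p under 0.05). The part of these cell types in the differences of the members was not tested.

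**Figure D4:**
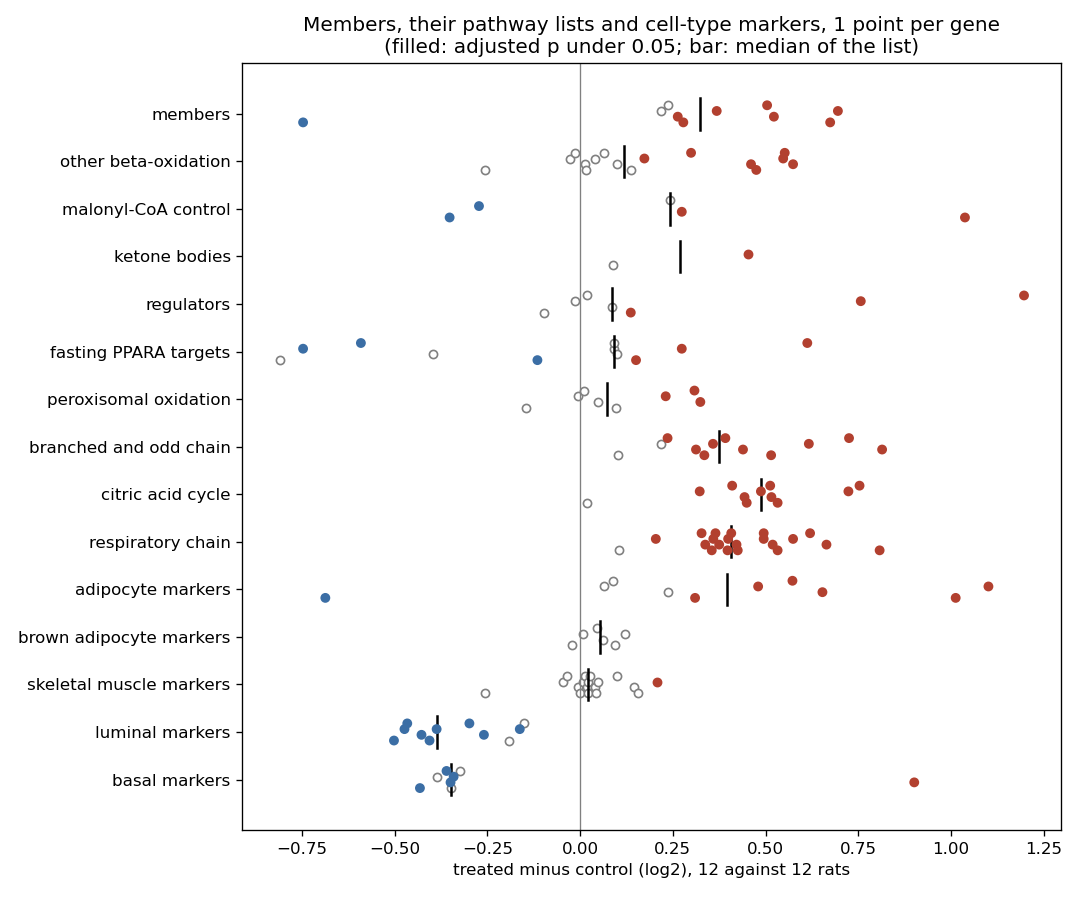
Treated minus control differences in log2 over 12 and 12 rats, 1 point per gene, for the 10 members, 9 pathway lists and 5 lists of cell markers; coloured points passed an adjusted p of 0.05 and the bar is the median of the list. The members other than Cpt1a lie between 0.22 and 0.70, and the luminal markers lie left of 0.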

How the data were processed

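RNA of rat mammary glands was hybridised to 56 arrays, per the labels. The deposited table has 1 log2 value for each probe set on each array; the log2 scale was inferred from the range of 4.12 to 14.08. No source used here states the software, background correction or normalization, and no further normalization was applied. The 57 control probe sets were left out, and 15866 were tested with limma 3.58.1 in R 4.3.3 (lmFit and eBayes, Benjamini-Hochberg). A gene with several probe sets was represented by the one highest on average in the 24 rats. Of the probe sets 12783 have 1 symbol, 312 several and 2771 none listed, and 12748 were updated to RefSeq genes of GRCr8. Each rat is 1 replicate, and the number of arrays limits the precision. Correlations and differences between members used 100000 permutations (Python 3.11.15, numpy 2.4.6, scipy 1.17.1).

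All probe sets of the 10 members are named, then of each pathway list those that passed, at most 4 with the smallest p and lists under 5 genes in full, and the 4 genes most like Cpt1a, Cpt1b, Hadha and Acadm. The members, lists and tests were chosen with earlier results of these data known. The fits were tested on simulated data. Alternatives were median centring, quantile normalization, a dim filter, a trended and robust prior, array weights, a stricter threshold, stage or technical score as covariate, rat number as a block, 1 probe set for each gene, a rank-sum test, rat 3 averaged over its arrays and omission of each array. The overlap of groups with repeat arrays of rat 3, the omission of both rats 3 and that of single arrays of the pools of 12 were chosen after seeing the data. Correlations were repeated with median-centred arrays.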

Additional observations from a re-analysis of the deposited data

Results flagged for a closer look

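Values of the members in 99 groups of 4 to 9 arrays were screened for a single array that stands apart from its group. Of these 7 were found, and chance alone gives about 1 in 20. Hadhb and Etfb were low in treated rat 3 among the treated rats not in diestrus, at 10.19 log2 for Hadhb, where the next value was 10.70, and at 9.99 log2 for Etfb, where the next was 10.29. The 2 repeat arrays of that rat read 10.35 and 10.43 log2 for Hadhb, and 10.05 and 10.14 log2 for Etfb. The technical score of that rat was -7.71 on its own array and -6.45 and 14.2 on the repeats, and the part of the score was not tested. With rat 3 of both groups left out, Hadhb was higher in treated rats by 0.71 ± 0.07 log2 (SE; limma adjusted p = 1.2e-06).

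Acadm was low in 3 arrays of control samples. It was 9.46 log2 in control rat 13 among the control rats in diestrus (next value 9.63), 9.48 log2 in the control pool of 2 that holds rats 13 and 15 (next 9.70), and 9.28 log2 in the control pool of 3 that holds rats 12, 14 and 15 (next 9.77). The first pair share rat 13, while the pool of 3 does not hold it. Cpt1b was high in control rat 14 among control rats in diestrus, at 6.70 log2 (next 6.45). Acadl was low on the array of the control pool of 12 labelled technical replicate 3, at 9.51 log2 (next 9.82).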

How the results depend on the processing

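The differences of single members are counted here whether called or not. Of them 359 kept their sign and side of the threshold under another setting with all arrays. A call was lost by 10 and gained by 4, and 0 changed sign. Apart from the rat block below, passing probe sets over the whole array were not counted under other settings or with an array left out. In individual rats 7 probe sets were higher under each setting but 3, where Acadl was added (dim probe sets left out, adjusted p = 0.0461; array weights, 0.0169; technical score as a covariate, 0.0290), and 2 were lower, except 1 at an adjusted p of 0.01 and 1 with 1 probe set per gene, which leaves out one of Cpt1a. Leaving out each rat gave 7 to 9 higher and 2 lower. In diestrus 0 were lower with arrays centred on their median and 0 with a trended and robust prior, and leaving out each rat gave 4 to 7 higher and 0 to 2 lower (7 higher without treated rat 9). In the other stages 1 was higher with median centring and 0 to 5 with a rat left out (5 without treated rat 3). In pools of 2, 1 was lower with median centring, 1 with the trended prior, and 0 to 2 with a pool left out. In pools of 3, 1 was lower with median centring and 1 with quantile normalization, where 3 were higher and Cpt2 lost its call (adjusted p = 0.0564), and leaving out a pool gave 2 to 4 higher and 1 to 2 lower (2 higher without treated replicate 2). With an array left out, 32 differences, none of them called, changed sign, and 1167 kept sign and side of the threshold. A call was lost by 63 and gained by 14. The refits numbered 68 for treatment and 48 for stage and interaction, where no member was called with all arrays. Differences without a call had none to lose, and the share of called ones among the 1167 was not counted. The changes of sign concern Etfb in the other stages (-0.055 to 0.41), Cpt1b by stage (-0.036 to 0.072) and interaction terms of Cpt1a (-0.11 to 0.40 and -0.018 to 0.24), Acadm (-0.12 to 0.000889), Acadvl (-0.017 to 0.15), Hadha (-0.070 to 0.087), Hadhb (-0.054 to 0.12) and Etfb (-0.23 to 0.23). The cause was not tested. With rat number as a replicate block, over 10 numbers found in both groups, 7 were higher and 2 lower; over all probe sets 2535 were called with the block, 2589 without it in the same rats and 2865 in all rats. Deviations of same-numbered rats correlated at -0.389 to 0.358, and 1 of 10 treated rats was closest to its own number. The scale of the values and the unknown normalization, 3 control rats outside diestrus, and pools made of the same rats limit these results; dim probe sets, such as those of Ppara and Ppargc1a, may not show differences.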
